A study of Homo sapiens with 20 samples.

Results

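Galectins are described here in 10 human colorectal cancer cell lines, as transcripts in the extracellular vesicles that the cells released and in the cells themselves. The 7 genes are LGALS1, LGALS2, LGALS3, LGALS4, LGALS8 and LGALS9, which encode galectins, and LGALS3BP, which encodes a glycoprotein bound by galectins. They were chosen by symbol, and all 7 were present among the 17113 protein-coding genes of the deposited count table. RNA of vesicles and RNA of cells was sequenced once per line, giving 20 libraries. By the labels all lines are adenocarcinoma, given no treatment, and were kept in medium with fetal bovine serum: LS1034 and LS513 of the cecum, and COLO-201, HCT116, HT-29, LoVo, LS123, SNU-C1, SW480 and WiDr of the colon. The question was whether the RNA of vesicles resembles that of their parent cells in culture. Vesicle RNA was amplified from low input with a SMART-Seq kit and cell RNA was prepared with a stranded ribosomal RNA depletion kit, so that compartment and kit cannot be told apart.

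Galectins are small lectins that bind galactose-bearing sugar chains on glycoproteins and glycolipids. They lack a signal peptide and leave the cell by routes outside the classical secretory pathway, vesicles among them, whereas LGALS3BP has a signal peptide and is secreted classically. Galectin-1 and galectin-2 carry a single type of sugar-binding domain, galectin-3 joins one such domain to a flexible tail, and galectins 4, 8 and 9 hold a pair of different domains in 1 chain. Galectin-3 and galectin-4 are abundant in intestinal epithelium, and galectin-1 is typical of mesenchymal and stromal cells. The genes of the 7 members lie on chromosomes 22 (LGALS1, LGALS2), 14 (LGALS3), 17 (LGALS3BP, LGALS9), 19 (LGALS4) and 1 (LGALS8).

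Depth and background differed between vesicle libraries. Total counts were 1748238 to 24358033 in vesicle libraries and 24777352 to 37418506 in cell libraries. A count of 0 therefore allows up to 3 counts, or 0.123 to 1.72 CPM in vesicles (CPM being counts scaled to a common library total) and 0.0802 to 0.121 CPM in cells, for counting error only. A background was modelled on exonic length and GC content from reads over genes silent in cells, and extended to all genes. It came to an estimated 1.73% to 41.3% of vesicle counts. The 5 lines of higher background were LoVo, LS1034, SNU-C1, WiDr and LS123, at 16.0% to 41.3% and 1748238 to 4507779 counts. The 5 lines of lower background were COLO-201, HT-29, LS513, HCT116 and SW480, at 1.73% to 6.15% and 4615692 to 24358033 counts. Cell libraries of HT-29 and WiDr had correlated deviations from the mean of all lines (r = 0.86 across 10036 genes), as had those of HCT116 and LS123 (r = 0.81), where the next pair had 0.35 and genes are not independent replicates. Their vesicle libraries had r of -0.05 and -0.16. WiDr is known as a derivative of HT-29. No such origin is labelled for HCT116 and LS123, so whether the library labelled LS123 holds a separate line was not settled here, and without WiDr and LS123 the same number of galectin genes was called, 1 higher and 2 lower. Each line counts as 1 sample (n = 10), p-values rest on the spread between lines alone, and fewer vesicles that carry a transcript and fewer copies per vesicle cannot be told apart. Of 9 epithelial markers EPCAM, KRT8, KRT18 and CDH1 were present in all 10 cell libraries, EPCAM at 673 to 6987 CPM. The other markers were each under 1 CPM in cells of some lines. These were the intestinal cadherin CDH17 in COLO-201, HCT116 and LS123, and VIL1 in HCT116 and LS123. CDX1 was so low in COLO-201, WiDr, HCT116, LS123 and SW480, CDX2 in COLO-201 and WiDr, and KRT20 in SW480.

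LGALS3BP and LGALS8 were called lower in vesicles than in cells. The call of LGALS3BP held in all 20 alternatives of the processing, and that of LGALS8 was lost in 6. LGALS2, which passed the expression filter only through its vesicle counts, was called higher, and the other 4 genes did not pass the test. The test was the quasi-likelihood test of edgeR with the cell line as a block, Benjamini-Hochberg adjustment over 15130 genes and a threshold of 0.05. Over all genes tested 28.6% were called higher in vesicles and 28.1% lower, so the 2 of 7 galectin genes called lower lie near the general share, and nothing is read from the 1 called higher. The median log2 fold change was 0.38 for the 7 genes, which is the value of LGALS4, and 0.01 for all genes. LGALS1, LGALS2, LGALS4 and LGALS9 reached the filter limit of 0.407 CPM in 9, 4, 8 and 8 cell libraries. None of them would pass on cell libraries alone, so nothing is read from this median. Among the 10024 genes that reached 10 CPM in the cell libraries on average, the shares were 5.29% and 42.2%. Calls over all genes were 50.4% higher with the TMM scaling used here and 65.5% to 79.8% higher with 3 other scalings, whose medians over all genes were 0.38, 0.48 and 0.76 (log2).

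**Figure D1:**
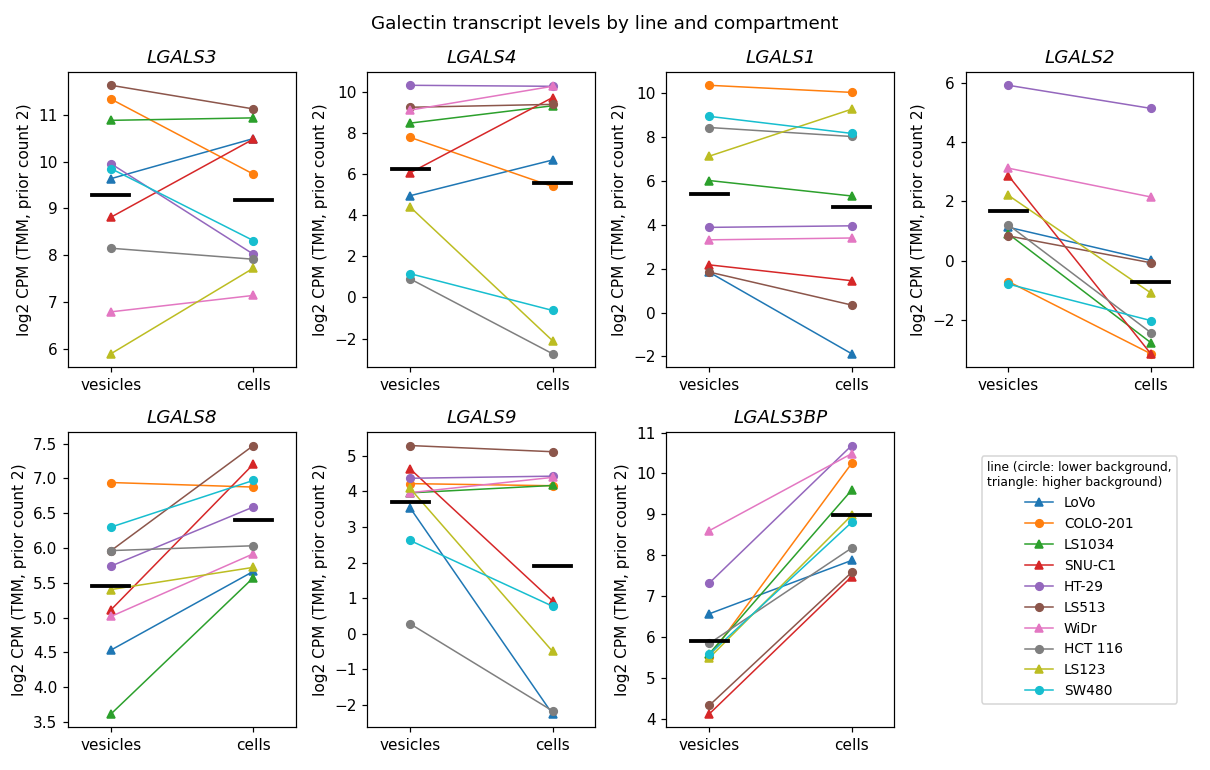
Level of each gene (vertical axis, log2 CPM with TMM scaling and a prior count of 2) in vesicles (left) and cells (right), 1 line per cell line, with black bars for the mean of 10 lines. LGALS3BP descends toward vesicles in all 10 lines, and the lines of LGALS3 cross.

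LGALS3BP, the galectin-3-binding glycoprotein first known as a tumour antigen, had the clearest difference. It stood at 17.2 CPM in SNU-C1, a median of 47.7 CPM and 388 CPM in WiDr vesicles, against 178 CPM in SNU-C1, a median of 475 CPM and 1642 CPM in HT-29 cells (TMM-scaled, as are all CPM below). WiDr vesicles lay above the cells of 4 lines, and the other 9 vesicle libraries lay below every cell library. The log2 fold change, vesicle over cell, was -3.11 (SE 0.34, edgeR adjusted p = 4.66e-06), lower in 10 of 10 lines, and 1.05% of the 10024 genes with at least 10 CPM in cells had a lower fold change. The smallest difference was in LoVo (-1.31) and the largest in COLO-201 (-4.73). Reads of LGALS3BP stood at more than 2 times the expected background in 9 of 10 vesicle libraries and at 52.8 times in HT-29, while SNU-C1 had 55 counts with 54.4 expected. With the expected background subtracted the fold change was -2.78 (edgeR adjusted p = 0.000482).

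LGALS3, the galectin with a flexible tail that can form lattices on the cell surface, was not called over all lines, and its difference had opposite signs in different lines. It stood at 59.3 CPM in LS123, a median of 861 CPM and 3181 CPM in LS513 vesicles, against 141 CPM in WiDr, a median of 585 CPM and 2241 CPM in LS513 cells. The ranges overlapped almost entirely. Its fold change (log2) was 0.11 (SE 0.41, edgeR adjusted p = 0.832), with vesicles higher in 5 of 10 lines.

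With TMM scaling the 5 lines with LGALS3 lower in vesicles were the 5 of higher background, and the 5 with LGALS3 higher were those of lower background. By CPM of the library total vesicles were higher in 7 of 10 lines, since LS1034 (2389 CPM in vesicles and 1702 CPM in cells) and WiDr (158 and 117 CPM) changed sides. Differences were -1.83 to -0.053 (log2) in the lines of higher background and 0.24 to 1.94 in those of lower background, with no overlap under TMM scaling. A test of this difference, chosen after the data were seen and run with TMM scaling only, gave -2.12 (SE 0.49, edgeR adjusted p = 0.0401, interaction term), where 7.5% of all genes passed. Fitted separately, the log2 fold change was -0.97 (adjusted p = 0.0683, edgeR) in the lines of higher background and 1.19 (adjusted p = 0.0148) in those of lower background. With background subtracted it was 0.91 over all 10 lines (edgeR adjusted p = 0.0357), with vesicles higher in 8 of 10. Depth and background both separated the classes, and their part in the difference was not tested.

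**Figure D2:**
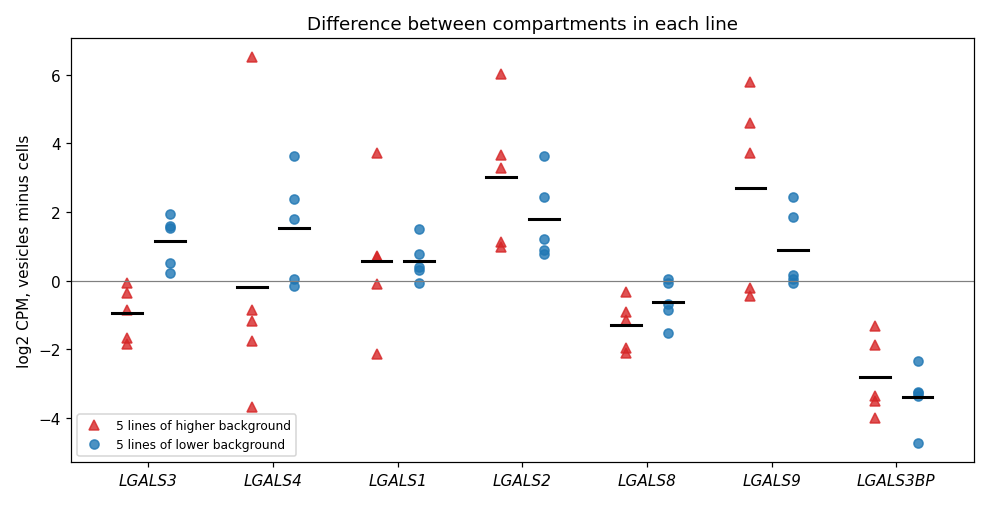
Difference between compartments in each line (vertical axis, log2 CPM of vesicles minus cells), with the 5 lines of higher background as triangles, the 5 of lower background as circles and black bars for class means. With this TMM scaling all triangles of LGALS3 lie below 0 and all circles above, though LS1034 and WiDr change sides by CPM of the library total, and for LGALS3BP every point lies below 0.

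The ratio of LGALS3 to LGALS3BP counts, which does not depend on scaling, was higher in vesicles than in the cells of the same line in 10 of 10 lines. It ran from 0.285 in WiDr to 160 in LS513 vesicles and from 0.0985 in WiDr to 11.7 in LS513 cells. The excess was 1.37-fold in LoVo, 80.8-fold in COLO-201 and 9.79-fold in the median line. Background was not subtracted from these counts. SNU-C1 vesicles had 55 LGALS3BP counts where background gave 54.4, so the vesicle ratio there rests on background reads. In LS1034, LS513 and LS123 vesicles background was an estimated 23.6% to 27.4% of LGALS3BP counts. The ratio of LGALS3 to LGALS8 was higher in vesicles in 9 of 10 lines, LS123 being the exception at 0.351 times the cell ratio. The ratio of LGALS3 to LGALS4 was higher in vesicles in 6 of the 7 lines with LGALS4 in cells, COLO-201 being the exception, and the other 3 lines had 1 to 16 LGALS4 counts in cells.

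LGALS4, an intestinal galectin tied to apical transport and lipid rafts, separated the lines in 2 sets. Cells of 7 lines had 1191 to 29854 counts, and cells of HCT116, LS123 and SW480 had 1, 3 and 16. Vesicles of these 3 lines had 8, 75 and 41 counts, where background alone gave 6.43, 31.0 and 23.8. Over all lines the level was 1.76 CPM in HCT116, a median of 144 CPM and 1286 CPM in HT-29 vesicles, against 0.0362 CPM in HCT116, a median of 374 CPM and 1244 CPM in WiDr cells. In HT-29 and LS513 vesicles and cells were level, at 1286 and 1243 CPM in HT-29 and at 612 and 675 CPM in LS513. SNU-C1 had the largest deficit in vesicles, with 67.0 CPM in vesicles and 849 CPM in cells, and COLO-201 went the other way, with 222 and 42.2 CPM. Across lines the fold change (log2) was 0.38 (SE 0.88, edgeR adjusted p = 0.735), with vesicles higher in 5 of 10 lines, 3 of which were the lines without LGALS4 in cells. LGALS4 reached the limit of the expression filter, 0.407 CPM, in 10 vesicle and 8 cell libraries. It would not pass on its cell libraries alone, so nothing is read from the direction of this fold change.

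LGALS1, a small galectin that acts as a dimer, varied widely among lines. It stood at 3.45 CPM in LoVo, a median of 39.3 CPM and 1294 CPM in COLO-201 vesicles, against 0.159 CPM in LoVo, a median of 27.3 CPM and 1034 CPM in COLO-201 cells. COLO-201, LS123, SW480 and HCT116 had the 4 highest levels in both compartments, at 138 to 1294 CPM in vesicles and 257 to 1034 CPM in cells. Vesicles of LoVo and SNU-C1, with 15 and 14 counts, were at the expected background of 11.1 and 15.4. Over all lines it was 0.53 higher in vesicles on the log2 scale (SE 0.42, edgeR adjusted p = 0.293), with 7 of 10 lines higher, and 0.92 higher in the DESeq2 test (adjusted p = 0.0272). LGALS1 reached the limit of the expression filter, 0.407 CPM, in 10 vesicle and 9 cell libraries. It would not pass on its cell libraries alone, so nothing is read from the direction of the DESeq2 call. LS123 was the line with the largest deficit in vesicles, 138 CPM in vesicles and 608 CPM in cells, and the other 3 of the 4 high lines had 1.25 to 1.71 times their cell level.

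LGALS2, a close relative of LGALS1 with a gene on the same chromosome, was close to silent outside HT-29 and WiDr. HT-29 had 60.4 CPM in vesicles and 35.2 CPM in cells, and WiDr had 8.59 and 4.33 CPM. The other 8 lines had 7 to 23 counts in vesicles and 0 to 28 in cells, with 0 in COLO-201 and SNU-C1 cells. Vesicle counts exceeded the expected background by more than 2 times in HT-29 (193 times), HCT116 (5.66 times), WiDr (3.36 times) and SNU-C1 (2.59 times). In the fit LGALS2 stood 2.92 higher in vesicles on the log2 scale (SE 0.87, edgeR adjusted p = 0.0106), with 10 of 10 lines higher, and 2.57 with background subtracted (adjusted p = 0.0782). LGALS2 reached the limit of the expression filter, 0.407 CPM, in 9 vesicle and 4 cell libraries. It passed the filter only with its vesicle counts, so the direction of its call is no result.

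LGALS8, a galectin that marks damaged vesicles for autophagy, was moderately lower in vesicles. It stood at 12.1 CPM in LS1034, a median of 47.7 CPM and 123 CPM in COLO-201 vesicles, against 47.5 CPM in LS1034, a median of 80.7 CPM and 177 CPM in LS513 cells. The groups overlapped, with vesicles lower in 9 of 10 lines, COLO-201 being the exception, and in 7 of 10 by CPM of the library total. The log2 fold change was -0.94 (SE 0.24, edgeR adjusted p = 0.00419). Of the 10024 genes with at least 10 CPM in cells, 32.5% had a lower fold change. LGALS8 did not pass without LoVo (-0.57, adjusted p = 0.138, edgeR), with upper-quartile scaling (-0.20, 0.429), with library size only (-0.47, 0.0738) or with background subtracted (-0.64, 0.0858). Nor did it pass in the 5 lines of lower background (-0.58, edgeR adjusted p = 0.158). Background alone gave 32.2 to 75.5 counts in the 5 vesicle libraries of higher background, where 69 to 150 were observed. HEATR1, a nucleolar gene on the opposite strand, covers 21.6% of the exonic bases of LGALS8 in the annotation and itself fell by 2.68 on the log2 scale (SE 0.31, edgeR adjusted p = 6.96e-06). Reads of the pair cannot be told apart without strand.

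LGALS9, a galectin that binds the immune receptor TIM-3 and is induced by interferon, was not called over all lines, and only some lines expressed it in cells. Its level was 1.10 CPM in HCT116, a median of 16.2 CPM and 39.1 CPM in LS513 vesicles, against 0.0957 CPM in LoVo, a median of 9.78 CPM and 34.6 CPM in LS513 cells. In COLO-201, LS1034, HT-29, LS513 and WiDr, with 450 to 660 counts in cells, vesicles had 0.742 to 1.13 times the cell level, although the LS1034 and WiDr vesicles, at 88 and 65 counts, were close to the 80.2 and 53.8 expected from background. In LoVo, SNU-C1, HCT116, LS123 and SW480, with 3 to 49 counts in cells, the level was 1.10 to 24.7 CPM in vesicles and 0.0957 to 1.78 CPM in cells, and vesicle counts were 0.422 to 2.64 times the expected background. The log2 fold change over all lines was 1.70 (SE 0.76, edgeR adjusted p = 0.0699), 2.09 in the DESeq2 test (adjusted p = 0.00108), and 0.36 with background subtracted (adjusted p = 0.732). LGALS9 reached the filter limit in 10 vesicle and 8 cell libraries. It would not pass on its cell libraries alone, so nothing is read from the direction of the DESeq2 call. The near-identical paralogs LGALS9B and LGALS9C share 7.16% of the 50-base stretches of LGALS9 transcripts, and reads from those stretches cannot be assigned.

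LGALS9 and LGALS3BP are known as interferon-induced genes, and the RefSeq promoter windows of both (GRCh38.p14, 250 bases before to 50 after the start) hold the core of the interferon-stimulated response element, written as GAAA, any 2 bases and GAAA. The counts were made on hg19, and these coordinates locate the printed windows only. The windows are shown because, of the 6 members with a window (all but LGALS1), these were the ones with this core on either strand, which 3.57% of 35116 promoter windows hold. Capitals mark the match, which begins 9 bases before the start in LGALS9, on the reverse strand, and 58 bases before it in LGALS3BP.
LGALS9, chr17:27630938-27631237, plus strand: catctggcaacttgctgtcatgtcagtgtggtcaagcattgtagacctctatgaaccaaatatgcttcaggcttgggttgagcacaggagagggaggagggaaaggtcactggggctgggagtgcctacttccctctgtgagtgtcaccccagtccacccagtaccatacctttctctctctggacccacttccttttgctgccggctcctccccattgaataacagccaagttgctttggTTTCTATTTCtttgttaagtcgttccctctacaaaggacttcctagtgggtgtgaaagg
LGALS3BP, chr17:78979874-78980173, minus strand: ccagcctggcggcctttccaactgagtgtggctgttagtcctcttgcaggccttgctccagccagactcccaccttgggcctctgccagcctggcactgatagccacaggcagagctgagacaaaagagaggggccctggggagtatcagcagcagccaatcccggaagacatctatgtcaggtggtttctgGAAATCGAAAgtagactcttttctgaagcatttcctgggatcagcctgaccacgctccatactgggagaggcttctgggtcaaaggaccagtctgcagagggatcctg
Other motifs searched on both strands in the windows of these 6 members were the AP-1 motif TGANTCA (7.71% of all windows), the GATA motif AGATAA (10.3%), the STAT motif TTCNNNGAA (7.66%), the GC box GGGCGG (45% of windows, found in LGALS3 and LGALS8), the CDX motif TTTATG (10.6%, LGALS8) and the TATA box TATAAA (11.5%, LGALS8). The first 3 had 0 matches among members. None of these matches is more than a run of letters. Levels of LGALS9 and LGALS3BP had a Pearson r of -0.15 across vesicles and 0.55 across cells (10 lines, description only, lines share depth and background).

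The leading gene of each line was the same in vesicles and cells when levels were taken per kilobase. By counts the leading gene differed between vesicles and cells in COLO-201, HT-29, WiDr, HCT116 and SW480. Exonic length was that of all annotated exons of a gene together, not of the isoform expressed. Per kilobase of exonic length, LGALS3 had the highest level of the 7 genes in both compartments of LoVo, LS1034, SNU-C1 and LS513, LGALS1 in COLO-201, HCT116, LS123 and SW480, and LGALS4 in HT-29 and WiDr. The lead was wide in LoVo, where LGALS3 had 332 RPKM in vesicles and 602 RPKM in cells (CPM per kilobase) and LGALS3BP, the next gene, had 26.4 and 65.3 RPKM. It was narrow in HT-29, where LGALS4 had 486 RPKM in vesicles, next to 415 RPKM of LGALS3, and 470 RPKM in cells, next to 458 RPKM of LGALS3BP. COLO-201 vesicles had 1177 RPKM of LGALS1 and 1082 RPKM of LGALS3, and COLO-201 cells had 941 and 355 RPKM. With 1 library per line, the order of neighbouring lines or genes has no replicate check. Mean levels per kilobase were 471 ± 450 RPKM in vesicles and 379.7 ± 333 RPKM in cells for LGALS3, 215 ± 371 and 205 ± 315 RPKM for LGALS1, and 119 ± 156 and 182 ± 195 RPKM for LGALS4 (SD, n = 10). LGALS3BP had 25.7 ± 31.1 RPKM in vesicles and 192 ± 153 RPKM in cells, LGALS2 10.8 ± 22.1 and 5.05 ± 13.2 RPKM, LGALS8 5.39 ± 3.28 and 9.68 ± 4.74 RPKM, and LGALS9 2.96 ± 1.82 and 2.04 ± 2.16 RPKM (SD, n = 10).

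The 7 genes together took 0.194% ± 0.118 of counts in vesicles and 0.202% ± 0.0803 in cells (SD, n = 10), with a makeup that differed. LGALS3 contributed 54.2% ± 26.7 of their counts in vesicles and 36.7% ± 25.9 in cells (SD, n = 10). LGALS3BP contributed 8.13% ± 10.2 in vesicles and 29.2% ± 16.3 in cells (SD, n = 10), its largest vesicle share being 34.6% in WiDr. By counts LGALS3BP led in the cells of COLO-201, HT-29, WiDr, HCT116 and SW480 and in the vesicles of 0 lines.

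**Figure D3:**
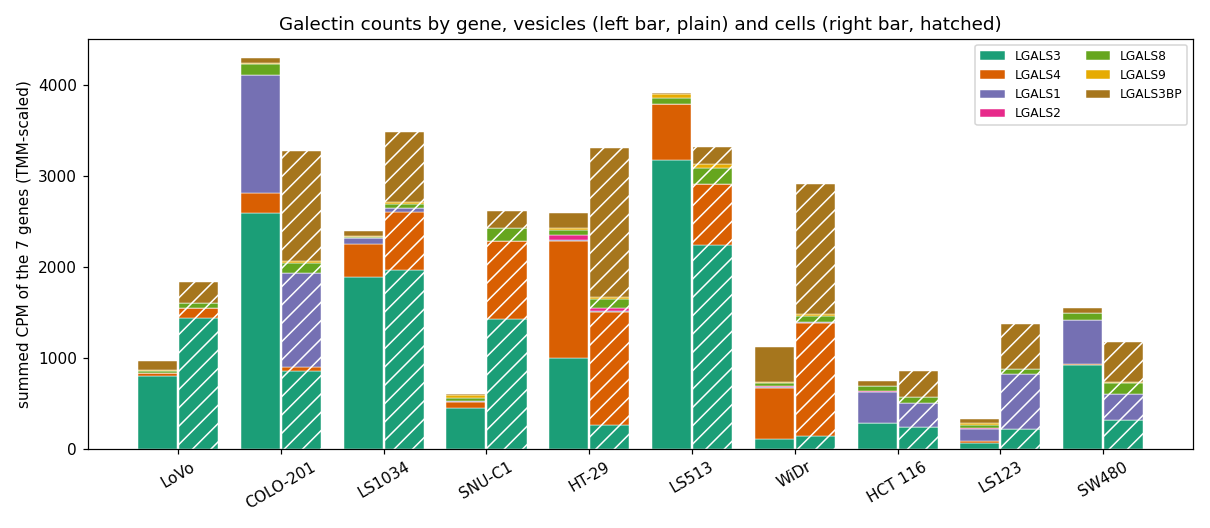
Summed level of the 7 genes (vertical axis, CPM, TMM-scaled) in vesicles (left, plain bars) and cells (right, hatched bars) of each line, stacked by gene. The brown LGALS3BP segment is smaller in vesicles in every line.

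LGALS1 was the only one of the 7 genes whose cell and vesicle levels passed the test of correlation over lines. Its vesicle and cell levels had a Pearson r of 0.95 (permutation p = 4.00e-05, adjusted p = 0.0155 over 12773 genes) and a Spearman rho of 0.96 (permutation p = 5.00e-05, adjusted p = 0.0446), two-sided with 100000 shuffles. Over all genes the median r was 0.42 and 3.62% passed. Without LoVo and COLO-201, the lines farthest from the median, r was 0.95 (permutation p = 0.00092, adjusted p = 0.0822). The adjusted permutation p was 0.0525 without LS1034, 0.0525 without HT-29, 0.0520 without LS513 and 0.0502 without WiDr and LS123, at r from 0.94 to 0.97.

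The other 6 genes had r from 0.63 to 0.87 and did not pass adjustment over all genes (adjusted permutation p from 0.0531 to 0.211). LGALS4 had r = 0.87 and rho = 0.84 (permutation p = 0.00214 and 0.00411, adjusted 0.0531 and 0.0989), 0.86 without HCT116 and LS123, and 0.53 within the 7 lines that expressed it (permutation p = 0.208). LGALS3 had r = 0.72 and rho = 0.76 (permutation p = 0.0217 and 0.0151, adjusted 0.144 and 0.158), and 0.57 without LS513 and LS1034. LGALS3BP had r = 0.69 and rho = 0.62 (permutation p = 0.0246 and 0.0619, adjusted 0.152 and 0.277), and LGALS9 r = 0.64 and rho = 0.67 (permutation p = 0.0238 and 0.0384, adjusted 0.149 and 0.225). LGALS2 had r = 0.76 and rho = 0.46 (permutation p = 0.0125 and 0.186, adjusted 0.112 and 0.448). These relations rest on few lines: r was 0.35 for LGALS3BP and 0.081 for LGALS2 without HT-29 and WiDr, and 0.43 for LGALS9 without LoVo and HCT116. LGALS8 had r = 0.63 and rho = 0.65 (permutation p = 0.0489 and 0.0493, adjusted 0.211 and 0.25), and 0.84 without LS513 and SNU-C1. With background subtracted LGALS4 (r = 0.88, adjusted permutation p = 0.0434) and LGALS9 (r = 0.84, 0.0392) passed. With library size only LGALS4 passed (r = 0.88, adjusted permutation p = 0.0475) and LGALS9 did not (r = 0.50, 0.330).

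**Figure D4:**
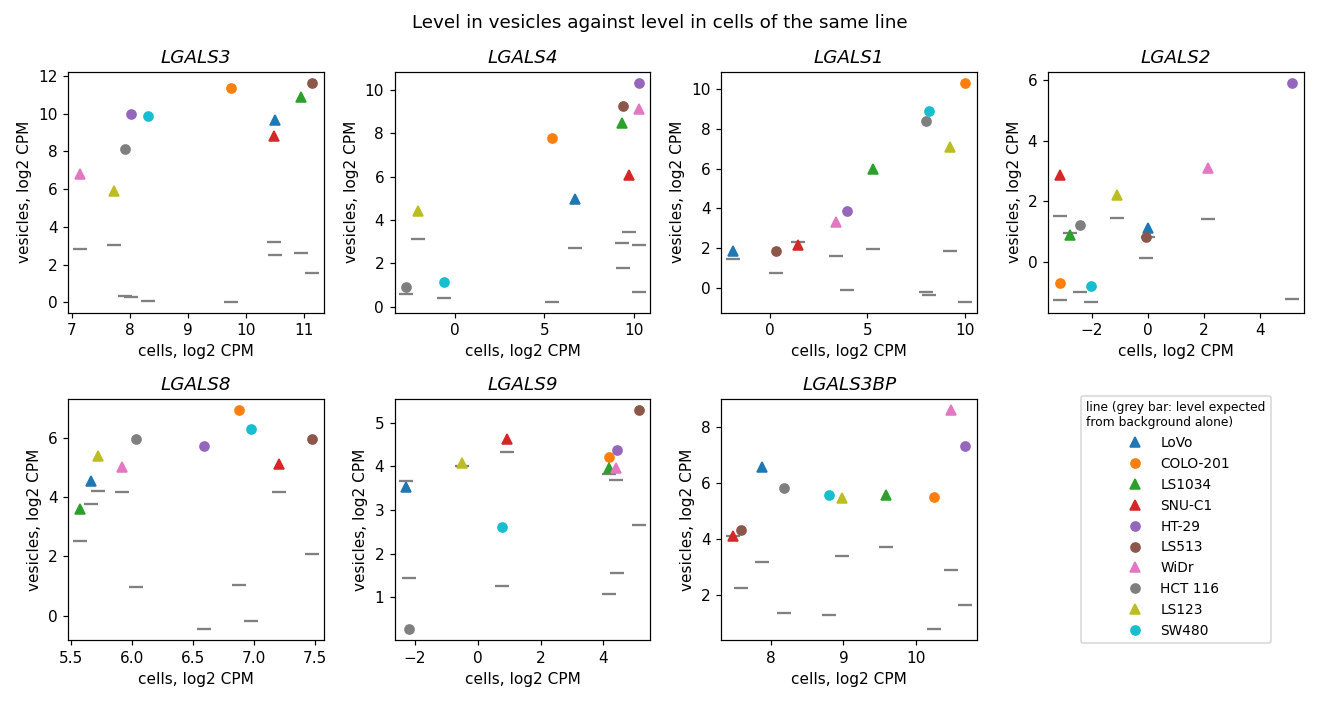
Level in vesicles (vertical axis, log2 CPM) against level in cells of the same line (horizontal axis, log2 CPM), 1 point per line, triangles for lines of higher background, with grey bars at the vesicle level expected from background alone. LGALS1 is ordered much as in cells, but its lowest vesicle points, LoVo and SNU-C1, lie at the grey bars, and the LGALS9 points of lines with little LGALS9 in cells lie near or below the grey bars, SW480 being the one above 2 times.

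For 6 members, LGALS2 being left out because its cell level averaged under 10 CPM, the genes most alike across the 10 cell libraries were named from 2332 variable genes, with Pearson r as the measure and no test. For LGALS1 they were GINS2, a DNA replication factor (r = 0.62 in vesicles and 0.97 in cells), S100A4, a calcium-binding protein (0.86 and 0.93), and COTL1, an actin-binding protein (0.92 and 0.91). For LGALS4 they were the small GTPase genes RASEF (0.91 in vesicles and 0.98 in cells) and ARL14 (0.79 and 0.97) and the calpain CAPN8 (0.85 and 0.96). LGALS3 was closest to the kinase TAOK3 (-0.093 in vesicles and 0.96 in cells), the actin-binding NEBL (0.67 and 0.95) and the ubiquitin ligase TRIM2 (0.70 and 0.94). LGALS3BP was closest to PLEKHG2 (0.047 in vesicles and 0.96 in cells), ARAP1 (0.34 and 0.94) and VWA1 (0.73 and 0.90). LGALS9 was closest to the Ephrin receptor EPHB3 (0.56 in vesicles and 0.97 in cells), the transporter SLC16A4 (0.50 and 0.95) and the immunoproteasome subunit PSMB10 (0.20 and 0.95). LGALS8 was closest to GALC, a lysosomal galactosylceramidase (-0.40 in vesicles and 0.89 in cells), the histone gene H2BC12 (0.48 and 0.87) and ARV1 (0.41 and 0.83). In vesicles r was above 0.75 for S100A4, COTL1, RASEF, ARL14 and CAPN8, a cut not fixed in advance, with VWA1 and TRIM2 just under it. RASEF, ARL14 and CAPN8 were named for LGALS4, which was nearly absent from cells of HCT116, LS123 and SW480. Their r within the other lines was not computed. The part of the alike pairs of lines and of vesicle background in these values was not tested.

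Among genes that work with galectins, more were called lower than higher in vesicles, as among genes of at least 10 CPM in cells, of which 5.29% were higher and 42.2% lower. Over all genes tested, including low ones such as PTPRC and MUC1, these shares were 28.6% and 28.1%, and the counts below are to be read against both. Of 20 glycoproteins known to be bound by galectins 19 were tested, 2 were higher and 11 lower, with a median log2 fold change of -1.92. The adhesion molecule CDH1 (-4.22, SE 0.41, edgeR adjusted p = 1.82e-06) and the lysosomal LAMP2 (-3.74, SE 0.34, adjusted p = 1.39e-06) fell most, each in 10 of 10 lines. The leukocyte gene PTPRC and the mucin MUC1 were the calls in the other direction, at 316 and 525 counts over the 10 vesicle libraries where background gave 307 and 469, and with background subtracted PTPRC did not pass the expression filter and MUC1 was at 0.04 (edgeR adjusted p = 0.985). Of 20 glycosyltransferases that build or cap galactose-bearing chains 0 were higher and 15 lower, with a median of -1.46. B3GNT2, which extends lactosamine chains (-3.09, SE 0.33), and C1GALT1C1, the chaperone of core 1 synthesis (-2.84, SE 0.30), fell most (edgeR adjusted p = 4.03e-06 and 3.39e-06).

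Of 16 genes of the response to damaged vesicles, in which galectins mark the exposed sugar chains, 1 was higher and 8 were lower, with a median of -0.65, and the share called lower is near the 42.2% of genes of at least 10 CPM in cells. The lysosomal regulator TFEB was higher at 0.87 (SE 0.29, edgeR adjusted p = 0.0183), and the kinase PRKAA1 (-2.33, SE 0.28, adjusted p = 8.22e-06) and the ESCRT partner PDCD6IP (-2.15, SE 0.31, adjusted p = 4.93e-05) fell most. With background subtracted 2 of the 16 were higher and 3 lower, and TFEB was not called (0.92, edgeR adjusted p = 0.0921). Without LoVo 3 were lower. Of 11 other galectins 7 were in the table and 3 were tested. LGALSL, a galectin-like gene, stood at 32.9 ± 18.1 CPM in vesicles and 51.5 ± 20.3 CPM in cells (SD, n = 10; -0.74, SE 0.29, edgeR adjusted p = 0.0389), and was not called with background subtracted (-0.35, adjusted p = 0.613). LGALS9B had 121 counts over the vesicle libraries, where background gave 288, and 90 over the cell libraries. LGALS7B, nearly identical to LGALS7, had 260 counts in vesicles, where background gave 79.5, and 91 in cells. Both were called higher and passed the filter through their vesicle counts.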

How the data were processed

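The deposited table holds raw counts of reads per gene symbol for 17113 protein-coding genes in 20 libraries. Per the submitters' processing notes the tools were STAR and featureCounts and the build was hg19; tool versions, gene models and strandedness are not given in the sources used here. Each of the 20 columns matched 1 library title, and libraries were paired by the cell line in the labels. The deviations of a line's cells and vesicles from the compartment means had r from 0.22 to 0.64 over the 10 lines. The members, lists, tests and the split by background were chosen with earlier results of these data known.

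Counts were tested in edgeR 4.0.16 (R 4.3.3, robust quasi-likelihood fit, TMM, filterByExpr, line as a block, adjusted p under 0.05), with DESeq2 1.42.0 as an alternative. SE was computed as the size of the fold change (log2) over the square root of the F statistic. Background was a Poisson model (statsmodels 0.14.6) of counts of 2076 silent genes (no cell library over 10 counts) on exonic length and GC content from GENCODE 29, matched for 17103 genes. It was subtracted from counts in one alternative. Correlations used log2 CPM with a prior count of 2, over genes whose mean reached 1 CPM in each compartment. The edgeR and correlation steps were run on simulated data that held no vesicle background and no alike lines. That check therefore cannot show how the steps behave with these features. Named were the 7 members, the 3 genes most like each member of at least 10 CPM in cells, among genes with at least 10 CPM and an SD of 1 (log2), and the 2 largest rises and falls per list. HEATR1 was named for its overlap with LGALS8, after its values were seen, and the 9 epithelial genes as markers. Marker lists of leukocytes, fibroblasts, erythroid cells, hepatocytes and keratinocytes were summed: hepatocyte and serum genes reached 480 CPM in vesicles and 916 CPM in cells (SERPINA1 in WiDr alone 417 and 910.1 CPM), leukocyte genes 875 and 3273 CPM (LYZ in HT-29 alone 868 and 3265 CPM, with PTPRC at most 1.34 CPM in cells), keratinocyte genes 1556 and 1964 CPM (KRT5 in SW480 alone 1333 and 1826 CPM, with KRT14 at most 1.38 CPM in cells), fibroblast genes 239 and 19.7 CPM, erythroid and platelet genes 191 and 10.2 CPM, and epithelial genes 1144 to 15997 CPM in vesicles and 2867 to 22132 CPM in cells. HBB in LS123 alone had 161 CPM in vesicles and 0 CPM in cells. Erythroid and platelet genes had 1941 counts over the vesicle libraries where background gave 409. Fibroblast genes had 6244 where it gave 3513. The part of these marker genes in any result was not tested.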

Additional observations from a re-analysis of the deposited data

Results flagged for a closer look

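The difference of LGALS3 between classes of lines stood out: the log2 fold change, vesicle over cell, was -2.12 in the 5 lines of higher background minus the 5 lines of lower background (SE 0.49, edgeR adjusted p = 0.0401). With this TMM scaling all 5 of the first lay below 0 and all 5 of the second above it. By CPM of the library total LS1034 and WiDr of the first lay above 0, and with background subtracted LoVo did too.

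LGALS9 in HCT116 vesicles lay apart from the other 9 vesicle libraries at a log2 CPM of 0.28, with a gap to its nearest neighbour of nearly the same size as the spread of the others. This library had 5 counts of LGALS9 where background gave 11.8, and its cells had 3. It was the only one set apart in this way among 21 sets of 10 values, and chance flags about 1 in 20.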

How the results depend on the processing

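LGALS3BP kept its call in all 20 alternatives (log2 fold change -3.36 to -2.36, edgeR or DESeq2 adjusted p from 1.27e-19 to 0.00168). Galectin genes called higher numbered 1, and were 2 with scaling by DESeq2 size factors, 3 with upper-quartile scaling, 3 in the DESeq2 test, 0 without the replicate block and 0 in the 5 lines of higher background. An equal count hid a change of gene in 2 settings. The 1 called was LGALS3, not LGALS2, with background subtracted (edgeR adjusted p = 0.0357 and 0.0782). The same held in the 5 lines of lower background (0.0148 and 0.0657). Galectin genes called lower numbered 2, and were 1 with upper-quartile scaling, without the block, with library size only, with background subtracted and in the 5 lines of lower background. Leaving out 1 line gave 1 to 2 higher and 1 to 2 lower, with LGALS9 called without LoVo or WiDr (adjusted p = 0.0364 and 0.0491, edgeR). LGALS9 was also called with DESeq2 size factors (2.06, adjusted p = 0.0369), upper-quartile scaling (2.42, 0.0177) and the DESeq2 test (2.09, 0.00108), and LGALS1 with upper-quartile scaling (1.23, 0.0238) and the DESeq2 test (0.92, 0.0272). LGALS9 reached the limit of the expression filter in 10 vesicle and 8 cell libraries, and LGALS1 in 10 and 9. Neither would pass the filter on its cell libraries alone, so nothing is read from the direction of these calls. Without the cell line block LGALS8 had an adjusted p of 0.0537 and LGALS2 of 0.497, while the log2 fold change of LGALS4 turned to -0.60. LGALS3 turned to -0.97 and LGALS4 to -0.99 in the 5 lines of higher background. Without 1 line LGALS3 ran from -0.11 to 0.59 and LGALS4 from -0.063 to 1.17. In the no-filter, DESeq2 and leave-one-out settings LGALS3 was not called.

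Members with correlated levels numbered 1, and were 2 with library size only (LGALS1 and LGALS4), 3 with background subtracted (LGALS1, LGALS4 and LGALS9), 0 without WiDr and LS123, 0 without the lines farthest from the median and 0 to 1 without 1 line. Other galectins called higher numbered 2, and were 6 with no filter, 1 without WiDr and LS123, 0 with background subtracted, 0 in the 5 lines of lower and 4 in those of higher background, and 1 to 3 without 1 line. The 1 called lower was 0 in the 3 other scalings, the DESeq2 test, without the block, with background subtracted and in both classes of lines, and 0 to 1 without 1 line. Of glycoproteins the 2 higher were 1 without the block and 0 with background subtracted and in the 5 lines of lower background, and 1 to 3 without 1 line. Of glycosyltransferases 1 was higher with upper-quartile scaling, in the DESeq2 test and in the 5 lines of higher background, and 9 were lower both with upper-quartile scaling and with library size only. Of the response to damaged vesicles 2 were higher with DESeq2 size factors, 3 when scaled to library size, 4 with upper-quartile scaling, 2 in the DESeq2 test, 0 without the block, 0 without WiDr and LS123 and 2 with background subtracted. Its members called lower were 4 with DESeq2 size factors, in the DESeq2 test, with scaling to library size, without the block or without WiDr and LS123, 2 with upper-quartile scaling, and 3 with background subtracted or in the 5 lines of lower background. Without 1 line 0 to 2 were higher and 3 to 9 lower. The cause of these moves was not tested.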

Other observations

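LS513 and LS1034, the 2 lines the labels place in the cecum, had the highest LGALS3 levels in cells, at 2241 and 1962 CPM, where the 8 colon lines had 141 to 1444 CPM. In vesicles they had 3181 and 1892 CPM, against 59.3 to 2594 CPM in the colon lines, COLO-201 being between the pair. The order was noticed in the data, and no test was run.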
